A study of Mus musculus with 20 samples.

Results

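The genes described here lie in a stretch of 7.48 Mb on distal mouse chromosome 6 (mm10, chr6:117862100-125344943), from the start of Zfp239 to the end of Scnn1a, in the neighbourhood of the immune checkpoint gene Lag3. The ends of the stretch are genes that differed between Fkbp5 knockout (KO) and wild-type (WT) hippocampus in these same libraries, so the members were chosen by their own KO against WT expression values. Genotype differences of the genes inside are therefore given as a description, and adjusted p-values for them only mark genes. Of 241 annotated genes that overlap the stretch, 100 had at least 100 counts over the 20 libraries. Lag3, C3ar1, Cd163 and the pseudogene Gm8430 were set aside by the selection, which left 96 members of 55536 genes counted. Of these, 89 were protein-coding, 4 antisense, 2 unverified transcripts (biotype TEC) and 1 a processed transcript. Just inside the count minimum stood Mfap5 with 102 counts, Cd4 with 120 and Gm44597 with 126, and just outside it 2010008C14Rik with 96, C1s2 with 87 and Clec4n with 86. The expression filter kept 91 members for testing, among 16419 genes. The other 5 members (Cd4, Ing4, Gm44597, Mfap5 and 4930557K07Rik) had mean levels of 0.25 to 0.37 CPM (a gene's count relative to the library total, after TMM scaling) and were not tested.

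The libraries came from whole hippocampus of male mice, strain label C57BL/6J, 12 weeks old. The 4 groups of 5 libraries were KO after saline, WT after saline, KO after 3 mg/kg lipopolysaccharide (LPS, an endotoxin of Gram-negative bacteria used to provoke inflammation), and WT after the same dose. Each injection was intraperitoneal and given once, and tissue was taken on day 7. The labels name no allele or construct for the knockout, no promoter or Cre driver, and do not state whether the 5 libraries of a group came from separate animals, so p-values measure the spread between libraries. In such bulk tissue, fewer cells of a type and less RNA per cell cannot be told apart.

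Fkbp5 encodes an HSP90-bound immunophilin known as a brake on glucocorticoid receptor signalling, and it lies on chromosome 17, not on chromosome 6. The distal part of mouse chromosome 6 is dense in genes of unrelated roles: glycolytic enzymes (Gapdh, Tpi1, Eno2), C-type lectin receptors of immune cells, the complement proteases C1r and C1s, the brain calcium channel gene Cacna1c, and synaptic genes such as Vamp1 and Clstn3. What the members share is their place. Genes that neighbour each other on a chromosome are inherited together, and comparisons between mouse lines are therefore often set out by position.

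Fkbp5 itself was lower in all 10 KO libraries, at 25.1 to 36 CPM, than in any of the 10 WT libraries, at 56.7 to 73.4 CPM. All 9 hippocampal markers examined were present in each library, the scarcest being Spink8 at 8.04 to 27.9 CPM; Neurod6, for example, had 115 to 295 CPM. Total counts were 16652992 to 27230202 per library. Replicates 1 and 2 of every group stood apart from replicates 3 to 5, for reasons the labels do not give. Between these library sets, 56 of the 91 members (61.5%) and 64.3% of all tested genes differed (edgeR quasi-likelihood, adjusted p under 0.05), 29 members being higher (34.1% of all tested genes) and 27 lower (30.2%) in replicates 1 and 2. Gapdh was lower in replicates 1 and 2 (log2 difference -0.83, edgeR adjusted p = 1.99e-07). P3h3, a collagen prolyl hydroxylase, was higher there (2.04, edgeR adjusted p = 2.39e-05), and so was Acrbp, the acrosin-binding protein of sperm (2.33, edgeR adjusted p = 2.23e-05). P3h3 and Acrbp were singled out after their values were seen, and their high values sat in replicate 1 of 3 groups. Each set held every group in equal numbers, and values within the sets are given for the leading members.

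Along the stretch, 6 of the 91 tested members passed the genome-wide threshold between KO and WT over both treatments (edgeR adjusted p under 0.05), beside 0.439% of all tested genes. Since this contrast chose the stretch, nothing is read from that share. From the proximal to the distal end the called members were Zfp239, A2m, Klrg1, Pianp, Ncapd2 and Scnn1a. The first 4 were higher in KO, where 0.292% of all tested genes were called, and the last 2 were lower in KO, where 0.146% were. They did not form an unbroken block: 39 tested members and 3.76 Mb separated Zfp239 from A2m, and 35 tested members and 2.71 Mb separated Klrg1 from Pianp. A2m and Klrg1 were next to each other among the tested members, 0.59 Mb apart. Pianp, Ncapd2 and Scnn1a sat together at the distal end, with gaps of 0.16 and 0.13 Mb that held 7 and 4 tested uncalled members. Of the 13 bins of 0.5 Mb that held a tested member, 4 held a called one. The last bin, 7.0 to 7.5 Mb from the start, held 3 of the 6 called members among its 18 tested genes. Because the ends were set at Zfp239 and Scnn1a, the first and the last bin hold a called member by construction.

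**Figure D1:**
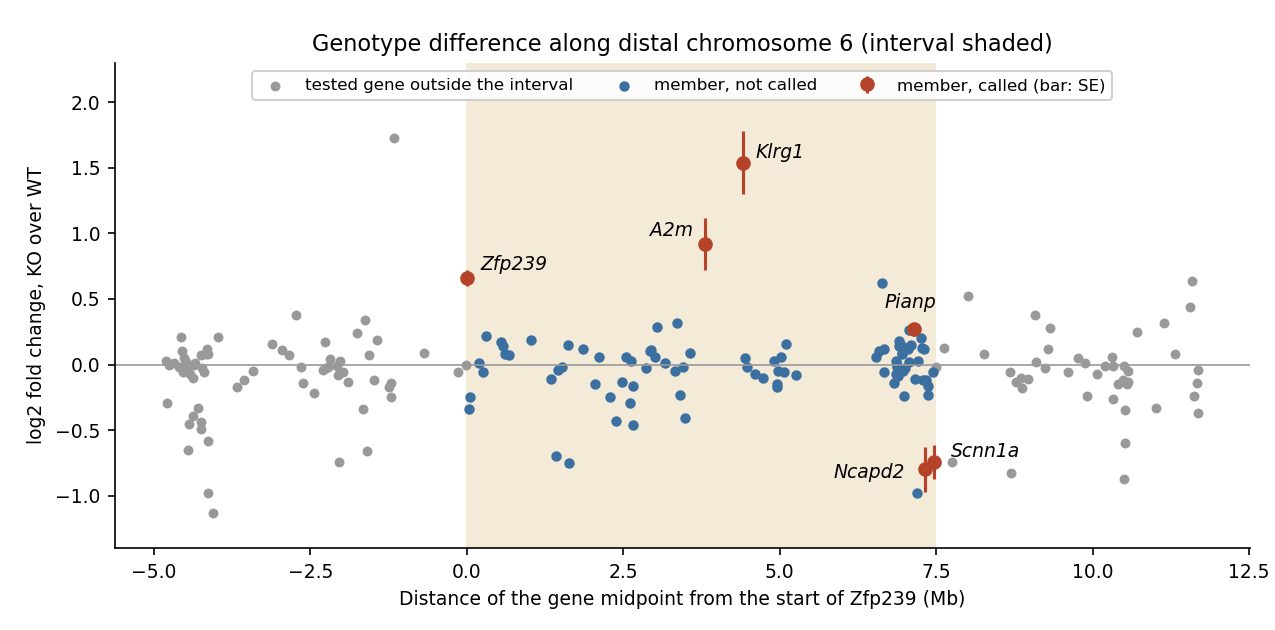
Log2 fold change of KO over WT over both treatments (vertical axis) for each tested gene of distal chromosome 6, against the distance of its midpoint from the start of Zfp239 in Mb (horizontal axis). Red points are the 6 called members with their SE, blue points the other members and grey points the tested genes within 5 Mb outside; many uncalled members near 0 lie between the called ones in the shaded stretch.

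Most members were close to equal between the genotypes. The log2 fold change of KO over WT over both treatments had a median of -0.004 over the members and of -0.011 over all genes tested. It lay within 0.2 of 0 for 67 of the 91 members. Its median absolute size was 0.119 over the members and 0.084 over all tested genes. An absolute value over 0.5 was seen in 9 members (9.89%) and in 4.62% of all tested genes. The share was 8.32% over the other tested genes of chromosome 6. Within 5 Mb outside the stretch it was 10.6% on the proximal and 13.6% on the distal side, so it was not particular to the members. The 9 members were the called ones other than Pianp, and Cacna2d4, Wnt5b, C1rl and Acrbp. Of the 9, 5 had a mean level under 2 CPM, where counting error is large. Among the 20 members with a mean above 100 CPM, the largest absolute log2 fold change was the 0.27 of Pianp.

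Zfp239 (ENSMUSG00000042097, + strand, chr6:117862100-117873291) encodes a zinc-finger protein with the C2H2 fingers of DNA-binding proteins. The 5 KO saline libraries had 57.5, 60.1, 50.2, 51.5 and 48.4 CPM, against 30.3, 32.3, 33.6, 34.3 and 32.7 CPM in the WT saline libraries. The 5 KO LPS libraries had 45.8, 52.7, 49.6, 47.9 and 46.3 CPM, against 26.5, 32.6, 33, 31.7 and 36.1 CPM in the WT LPS libraries. Every KO library was above every WT library, and the KO mean was 158% of the WT mean. KO over WT gave a log2 fold change of 0.72 ± 0.09 (SE) after saline, 0.60 ± 0.09 after LPS and 0.66 ± 0.06 over both. It was 0.84 in replicates 1 and 2 and 0.54 in replicates 3 to 5. In the edgeR fit of all 20 libraries without covariates, Zfp239 was the 1 member called in each treatment taken alone. There 0.171% of all tested genes were called after saline and 0.146% after LPS. Other fits called further members, as given below.

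RefSeq lists 2 promoter windows for Zfp239 (GRCm38.p6, + strand, 250 bases before to 50 after each start), at chr6:117861774-117862073 and chr6:117862631-117862930. They are shown because Zfp239 separated the genotypes in every library and opens the stretch. The window of Ncapd2 (- strand, chr6:125191537-125191836), which was lower in KO, is shown beside them. Capitals mark ACANNNTGT, the core of the glucocorticoid response element, a motif that reads the same on both strands. It is shown because the knocked-out gene acts on the receptor that binds it.
Zfp239, first start: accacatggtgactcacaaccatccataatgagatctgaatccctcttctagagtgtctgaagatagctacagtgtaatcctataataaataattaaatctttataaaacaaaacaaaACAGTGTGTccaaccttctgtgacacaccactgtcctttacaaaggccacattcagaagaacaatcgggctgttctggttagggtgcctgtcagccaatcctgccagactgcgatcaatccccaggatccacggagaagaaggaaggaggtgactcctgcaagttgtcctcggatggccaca
Zfp239, second start: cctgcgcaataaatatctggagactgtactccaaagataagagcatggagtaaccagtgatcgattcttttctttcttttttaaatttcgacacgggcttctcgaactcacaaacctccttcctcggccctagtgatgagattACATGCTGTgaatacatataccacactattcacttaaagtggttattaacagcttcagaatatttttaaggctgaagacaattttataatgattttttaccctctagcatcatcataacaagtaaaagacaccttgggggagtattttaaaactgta
Ncapd2: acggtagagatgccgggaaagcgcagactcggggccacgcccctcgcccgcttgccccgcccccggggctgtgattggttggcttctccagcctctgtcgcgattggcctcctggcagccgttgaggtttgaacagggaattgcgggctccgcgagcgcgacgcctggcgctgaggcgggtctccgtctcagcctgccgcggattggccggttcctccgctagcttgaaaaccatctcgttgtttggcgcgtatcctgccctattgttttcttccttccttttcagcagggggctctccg
Each Zfp239 window held 1 match, at positions -132 and -107 from its start, and the Ncapd2 window held none. Of 107 windows that matched 72 members, 9 held the motif (8.41%), in 8 members. Over all 32851 promoter windows given by RefSeq, a share of 6.85% held it. Pianp had 3 windows, all without these letters. The promoter set used had no entry for A2m, Klrg1 and Scnn1a, so these called members were not searched. A match describes the letters only.

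A2m (ENSMUSG00000030111, chr6:121635376-121679227) encodes alpha-2-macroglobulin, a secreted inhibitor that traps proteases. The KO saline libraries had 4.2, 4.26, 6.2, 6.65 and 7.30 CPM, against 3.06, 1.89, 3.15, 2.01 and 1.84 CPM in the WT saline libraries. After LPS the KO libraries had 6.99, 3.56, 5.94, 6.10 and 5.58 CPM, against 6.63, 2.35, 2.45, 4.08 and 3.07 CPM in WT. The saline groups did not overlap, whereas after LPS WT replicates 1 and 4 lay within the range of the KO libraries. On the log2 scale KO over WT was 1.25 ± 0.28 (SE) after saline, 0.59 ± 0.27 after LPS and 0.92 ± 0.20 over both. It was 0.53 in replicates 1 and 2 and 1.19 in replicates 3 to 5.

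Meningeal fibroblast markers moved with some of these libraries. Their summed level (9 of 9 markers detected, none at 0) was 63.8 to 177 CPM in KO saline, 51.3 to 109 CPM in WT saline, 73.1 to 118 CPM in KO LPS and 66.1 to 162 CPM in WT LPS. WT LPS replicate 1, the WT library with the most A2m, had 162 CPM. Other libraries did not follow that order: KO LPS replicate 1, with 6.99 CPM of A2m, had 98.5 CPM of the markers, and WT saline replicates 3 and 4, with 3.15 and 2.01 CPM of A2m, had 109 CPM each. Of the 9 markers, 8 had a KO over WT log2 fold change above 0 (median 0.20) and none was called. Of 6 choroid plexus markers, none at 0, 5 were tested and all 5 lay above 0 for KO over WT (median 0.37, none called). Their summed level was 36.6 to 134 CPM in KO saline, 29.5 to 78.5 CPM in WT saline, 29.6 to 118 CPM in KO LPS and 24.6 to 82.7 CPM in WT LPS. Of 5 oligodendrocyte markers, none at 0, all lay below 0 (median -0.29, none called), with sums of 2050 to 3360 CPM in KO saline, 2500 to 4450 CPM in WT saline, 2450 to 4060 CPM in KO LPS and 2910 to 5730 CPM in WT LPS. In the other lists, 1 of 9 hippocampal neuron markers was called for KO over WT (7 above 0, median 0.12). So was 1 of 5 blood markers (1 above 0, median -0.27). None was called for microglia (1 of 9 above 0, median -0.16) or thalamus (3 of 10, -0.11). Nor was any for border macrophages (3 of 5, 0.09) or astrocytes (1 of 5, -0.04). The part of these marker lists in the differences of A2m and the other members was not tested.

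Klrg1 (ENSMUSG00000030114, chr6:122270596-122282882) encodes an inhibitory lectin-like receptor of natural killer and T cells. It was scarce, with 268 counts in all 20 libraries. The KO saline libraries had 0.724, 0.852, 1.68, 1.15 and 0.774 CPM, against 0.320, 0.277, 0.374, 0.355 and 0.306 CPM in the WT saline libraries. The KO LPS libraries had 0.688, 0.994, 1.25, 0.847 and 0.752 CPM, against 0.434, 0.162, 0.580, 0.300 and 0.196 CPM in the WT LPS libraries. In raw counts the KO libraries held 12 to 35 and the WT libraries 3 to 11. Klrg1 thus passed the expression filter only through the KO libraries, where it was high, so its call and its separation are descriptions. It did not pass the stricter filter of at least 1 CPM in 5 libraries. The genotypes did not overlap, and the KO mean was 294% of the WT mean. KO over WT amounted to log2 fold changes of 1.65 ± 0.34 (SE) after saline, 1.43 ± 0.34 after LPS and 1.54 ± 0.24 over both, with 1.46 in replicates 1 and 2 and 1.59 in replicates 3 to 5. Zfp239 and Klrg1 were the 2 members whose 10 KO libraries all lay above the 10 WT libraries, as 0.116% of all tested genes did. In either direction the genotypes did not overlap for 0.152% of all tested genes.

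Pianp (ENSMUSG00000030329, chr6:124996694-125003096) encodes a neuronal membrane protein that binds PILR-alpha and GABA-B receptors. It was the most abundant called member per exon length, at 56.4 RPKM (CPM per kilobase of exon). Its levels were 183, 160, 171, 180 and 171 CPM in KO saline libraries, against 162, 146, 141, 148 and 150 CPM in WT saline libraries. In KO LPS libraries they were 190, 156, 193, 173 and 183 CPM, against 147, 140, 142, 140 and 142 CPM in WT LPS libraries. The LPS groups did not overlap, and the saline groups overlapped by KO replicate 2 and WT replicate 1. The difference was small on the log2 scale, 0.21 ± 0.07 (SE) after saline, 0.33 ± 0.07 after LPS and 0.27 ± 0.05 over both, with 0.24 in replicates 1 and 2 and 0.31 in replicates 3 to 5.

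Ncapd2 (ENSMUSG00000038252, chr6:125168007-125191701) encodes a subunit of condensin I, the complex that compacts chromosomes at mitosis. The KO saline libraries had 8.47, 9.93, 7.65, 7.22 and 9.34 CPM, against 20, 16.3, 10.1, 11.6 and 12.0 CPM in the WT saline libraries. The KO LPS libraries had 14.8, 7.5, 7.09, 6.15 and 8.03 CPM, against 22.3, 19.3, 12.1, 14 and 12.9 CPM in the WT LPS libraries. KO LPS replicate 1 was the 1 KO library inside the WT range. Over all groups the level also differed between the library sets, with a log2 difference of 0.56 for replicates 1 and 2 over replicates 3 to 5 (edgeR adjusted p = 0.000125), although KO LPS replicate 2 lay within the range of KO LPS replicates 3 to 5 and KO saline replicate 1 within that of KO saline replicates 3 to 5. KO over WT stood at log2 fold changes of -0.72 ± 0.24 (SE) after saline, -0.89 ± 0.24 after LPS and -0.80 ± 0.17 over both. It was -0.92 in replicates 1 and 2 and -0.68 in replicates 3 to 5.

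Scnn1a (ENSMUSG00000030340, chr6:125320659-125344943) encodes the alpha subunit of the epithelial sodium channel and closes the stretch. The KO saline libraries had 6.55, 5.84, 7.74, 7.16 and 8.35 CPM, against 11.1, 9.27, 11.9, 14.9 and 13.6 CPM in the WT saline libraries. The KO LPS libraries had 5.76, 4.28, 8.72, 5.25 and 8.40 CPM, against 8.24, 10.8, 11, 10.8 and 12.3 CPM in the WT LPS libraries. The saline groups did not overlap, and after LPS the lowest WT library lay below the 2 highest KO libraries. Scnn1a had log2 fold changes of -0.77 ± 0.18 (SE) after saline, -0.72 ± 0.19 after LPS and -0.74 ± 0.13 over both, with -0.80 in replicates 1 and 2 and -0.71 in replicates 3 to 5.

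**Figure D2:**
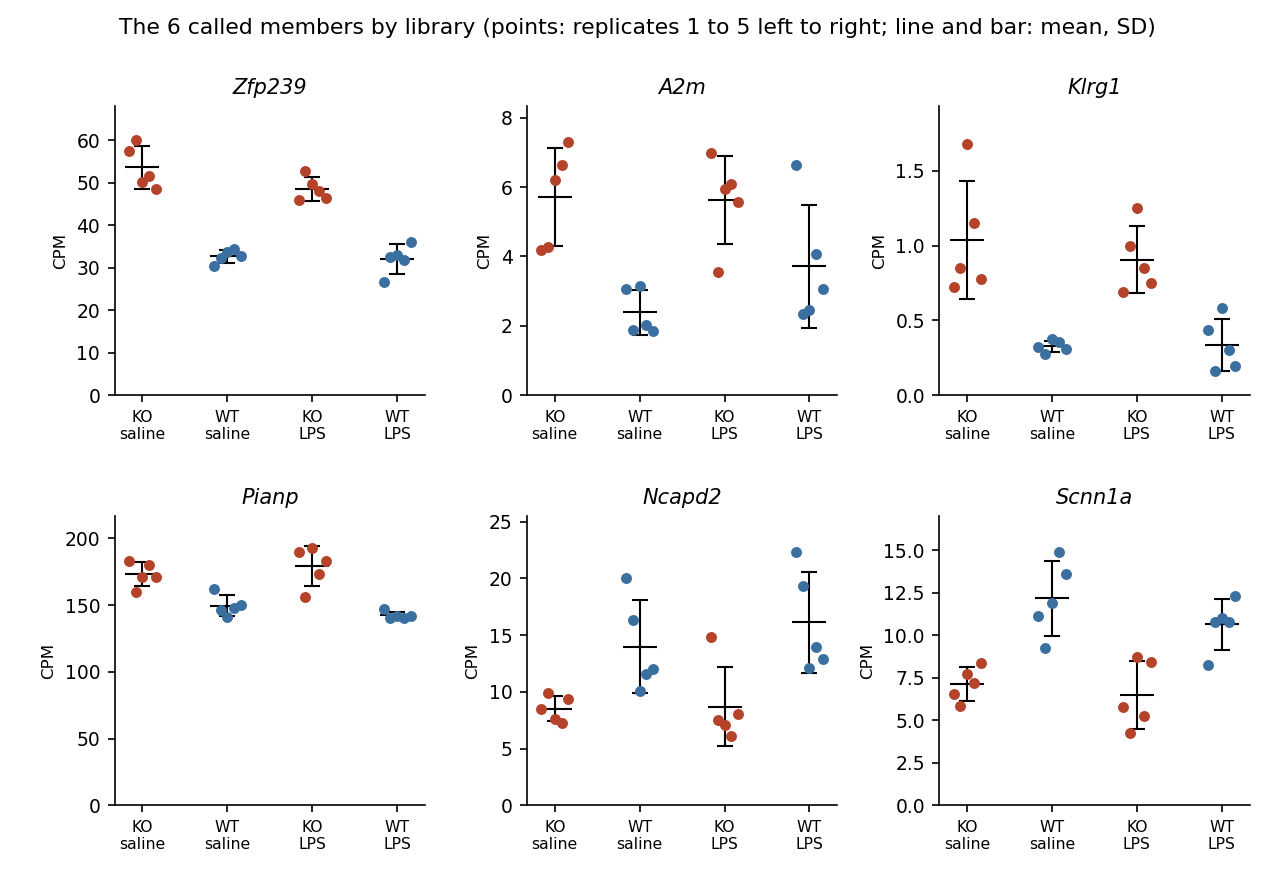
Level in CPM (vertical axis) of the 6 called members in each library, by group (horizontal axis: KO saline, WT saline, KO LPS, WT LPS). Points are replicates 1 to 5, with the mean and SD; KO and WT separate fully for Zfp239 and Klrg1 and overlap by some libraries for the others.

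Not every call was stable. The fits below repeat the contrast that chose the stretch, on the same or overlapping libraries. A call that persisted is therefore a description and no support for the gene. With replicate number as a block, 7 members were called over both treatments (the same 6 and Wnt5b), where 1.07% of all tested genes were called. The block called 5 members after saline (0.359% of all genes), namely Zfp239, A2m, Klrg1, Ncapd2 and Scnn1a. It called 6 after LPS (0.384%), namely Zfp239, Klrg1, Pianp, Ncapd2, Scnn1a and Hnrnpf. With the block, the log2 fold changes after saline were 0.72 ± 0.08 (SE) for Zfp239, 1.26 ± 0.23 for A2m, 1.61 ± 0.30 for Klrg1, -0.68 ± 0.14 for Ncapd2 and -0.77 ± 0.13 for Scnn1a. After LPS they were 0.60 ± 0.08 for Zfp239, 1.45 ± 0.30 for Klrg1, 0.33 ± 0.06 for Pianp, -0.91 ± 0.14 for Ncapd2, -0.75 ± 0.14 for Scnn1a and -0.43 ± 0.09 for Hnrnpf. Wnt5b over both treatments stood at -0.77 ± 0.18. Most of these fold changes were close to those without the block, and the SE of most was smaller. Replicates 1 and 2 alone called 0 members over both treatments (0.0564% of all genes), after saline (0.0169%) and after LPS (0.0226%). Replicates 3 to 5 alone called 15 of 85 members over both treatments, where 8.1% of all tested genes were called, 8 after saline (3.22%) and 5 after LPS (0.76%). Limma-voom, run with a quality weight for each library, called 14 members over both treatments (3.26% of all genes). It called 7 after saline (2.2%) and 5 after LPS (0.378%). DESeq2 called the same 6 over both treatments (0.608%), 4 after saline (0.244%) and 2 after LPS (0.229%). A term for the library set gave 6 (0.926%), 3 (0.286%) and 4 (0.329%) in these comparisons. Without KO LPS replicate 1 and WT LPS replicates 1 and 4 (a set that does not include KO saline replicate 4, whose thalamus marker sum was as high), the counts were 5 (0.337%), 2 (0.181%) and 1 (0.0964%). Zfp239, Klrg1, Pianp and Scnn1a were called in all 20 fits that each left out 1 library, A2m in 6 and Ncapd2 in 8. Pianp lost its call without the 3 libraries, with no filter on low counts and in replicates 1 and 2 alone, at 0.24 to 0.28. A2m lost its call, at log2 fold changes of 0.86 to 0.94, without any one of KO saline replicates 3, 4 and 5, KO LPS replicates 1, 3, 4 and 5, WT saline replicates 2, 4 and 5, and WT LPS replicates 2, 3, 4 and 5. Ncapd2 lost its call, at -0.82 to -0.72, without any one of KO saline replicates 1, 3, 4 and 5, KO LPS replicates 2, 3, 4 and 5, WT saline replicates 1 and 2, and WT LPS replicates 1 and 2.

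Between treatments, the sign of KO over WT was the same after saline and after LPS for 59 of the 91 members (64.8%), beside 58.3% of all tested genes. The saline and LPS comparisons share no libraries, but both belong to the contrast that chose the stretch. Slc6a12, the betaine and GABA transporter, stood farthest from equal values, with 0.60 ± 0.63 (SE) after saline and -1.41 ± 0.63 after LPS.

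**Figure D3:**
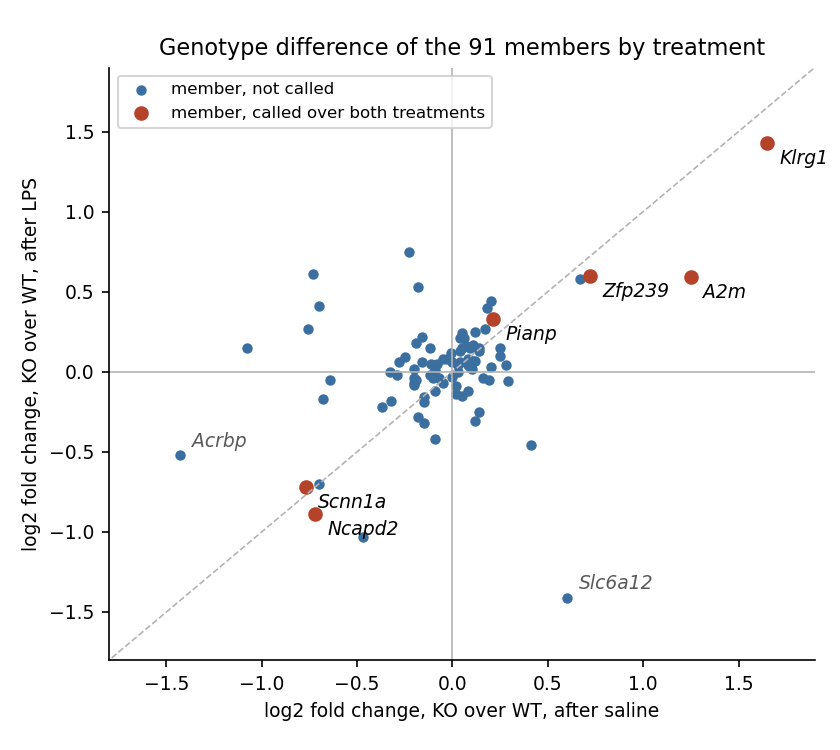
Log2 fold change of KO over WT after LPS (vertical axis) against the same after saline (horizontal axis) for the 91 tested members; the dashed line marks equal values and red points are the called members. Most members lie near 0 on both axes, and Slc6a12 lies farthest from the dashed line.

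At the proximal end, the tested members next to Zfp239 were Hnrnpf, an RNA-binding protein that acts in splicing, and the unverified transcript 4933440N22Rik. Hnrnpf ranged over 23.5 to 43.0 CPM in KO and 34.6 to 46.1 CPM in WT libraries, with a log2 fold change of -0.25 ± 0.08 (SE). 4933440N22Rik had 165 counts in all and -0.34 ± 0.28, and it shares 410 exon bases with Hnrnpf on the opposite strand. Outside that end, Zfp637, a zinc-finger gene, stood at 0.00 ± 0.09, Gm7292 at -0.06 ± 0.27 and Cxcl12, a chemokine, at 0.09 ± 0.08. At the distal end, the members before Scnn1a were Ltbr, the lymphotoxin beta receptor, at -0.06 ± 0.11, and Tapbpl, an editor of peptides on MHC class I, at -0.16 ± 0.09. Outside it, Tnfrsf1a, a TNF receptor, stood at -0.02 ± 0.12, Cd9, a tetraspanin, at 0.13 ± 0.15 and Vwf, the von Willebrand factor of endothelium, at -0.74 ± 0.18. Vwf had 5.37 to 13.1 CPM in KO and 8.07 to 26.4 CPM in WT libraries and was not called.

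No gene was called within 5 Mb outside either end, of 66 tested on the proximal and 44 on the distal side. At an unadjusted p under 0.05 (edgeR quasi-likelihood) there were 9 on the proximal and 4 on the distal side. The members had 11 of 91 at that level, beside 4.79% of all tested genes. The nearest called gene outside was Gm17055, 9.2 Mb before the start, with 76 tested genes between. Over the whole of chromosome 6, 20 of 824 tested genes were called, 6 of them in the stretch, 14 of 585 before it and 0 of 144 after it. The median absolute log2 fold change was 0.119 over the members, 0.107 over the tested genes within 5 Mb on the proximal side and 0.13 on the distal side. Both ends were set at called genes, Zfp239 and Scnn1a, so the uncalled flanks and the gap to Gm17055 follow in part from that choice. No test was made of these position values, and no boundary is read from them.

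By role, the members were described in 6 lists that cover 75 of the 96. In the list of excitability and transport (11 of 11 tested), KO over WT over both treatments called Scnn1a alone, and the list's median log2 fold change was -0.02. Cacna2d4, an auxiliary calcium channel subunit, had 0.385 to 1.74 CPM in KO and 0.848 to 2.37 CPM in WT libraries and a log2 fold change of -0.70 ± 0.22 (SE). Cacna1c, the pore of the L-type calcium channel, had 90.2 to 130 CPM in KO and 73.9 to 128 CPM in WT libraries, and 0.19 ± 0.11. Slc2a3, the neuronal glucose transporter GLUT3, stood at 0.03 ± 0.09, and Wnk1, a kinase that controls ion transport, at 0.06 ± 0.11.

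In the synapse and vesicle list (9 tested), Pianp was called and the median was 0.09, with 7 of 9 above 0. Tuba8, a tubulin, had 0.32 ± 0.19 (SE) and Vamp1, the vesicle fusion protein synaptobrevin 1, -0.23 ± 0.12. Iqsec3, an exchange factor of inhibitory synapses, had 0.09 ± 0.07, and Clstn3, a synaptic adhesion protein, 0.10 ± 0.13. The 3 glycolytic enzymes were all slightly above 0 and none was called: Eno2 at 0.14 ± 0.14, Tpi1 at 0.14 ± 0.12 and Gapdh at 0.12 ± 0.21. Gapdh has 94 near-identical copies elsewhere in the annotation, with 627039 counts for Gapdh beside 8053 for the most counted copy, Gm7336, so some reads may be split between them.

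In the immune list (15 of 16 members tested, Cd4 being too low), A2m and Klrg1 were called, both higher in KO, and the median was -0.06, with 6 of 15 above 0. Il17ra, a receptor subunit for interleukin 17, had 6.86 to 9.85 CPM in KO and 7.84 to 12.5 CPM in WT libraries, and -0.29 ± 0.09 (SE). C1rl, a serine protease related to complement C1r, had 157 counts in all and 0.62 ± 0.27. In the list of chromatin and transcription (17 of 18 tested, without Ing4), Zfp239 was higher and Ncapd2 lower in KO, and the median was -0.03. In the list of ubiquitin, peroxisome, lipid and signalling genes (18 tested), no member was called and the median was 0.02. Wnt5b, a secreted Wnt ligand, had 0.564 to 1.88 CPM in KO and 1.15 to 2.72 CPM in WT libraries, and a log2 fold change of -0.75 ± 0.21. Cops7a, a subunit of the COP9 signalosome, had 0.15 ± 0.08 and Lpcat3, an enzyme of membrane phospholipids, -0.14 ± 0.08. The exons of Lpcat3 share 334 bases with Emg1 on the opposite strand.

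The response to LPS did not set the ends of the stretch and was tested in the members, from which Lag3, C3ar1 and Cd163 had been set aside. No member passed at day 7, neither over both genotypes nor in KO or WT alone (edgeR quasi-likelihood, adjusted p under 0.05). Over both genotypes 0.0426% of all tested genes were called, in KO 0.00609% and in WT 0.0%. DESeq2 also called 0 members over both genotypes (0.0907% of all genes), in KO (0.0208%) and in WT (0.00595%). So did limma-voom (0.104%, 0.0122% and 0.0183%), and the replicate block in KO (0.0305%) and in WT (0.0183%). At an unadjusted p under 0.05 there were 3 of 91 members over both genotypes beside 2.71% of all tested genes, 5 in KO beside 1.75% and 4 in WT beside 2.07%. Lag3, which lies inside the stretch but is no member, was called (log2 fold change of LPS over saline 1.08 ± 0.12, edgeR adjusted p = 0.000447).

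Ptpn6, the phosphatase SHP-1 of blood and immune cells, had 4.75, 6.37, 3.54, 3.50 and 4.08 CPM in KO LPS libraries, against 3.04, 4.05, 1.63, 1.79 and 2.82 CPM in KO saline libraries. In WT it had 4.62, 5.23, 3.42, 3.06 and 3.26 CPM after LPS, against 3.24, 3.69, 2.67, 2.25 and 3.43 CPM after saline. The groups overlapped in both genotypes, but 9 of the 10 LPS libraries were above the saline library of the same genotype and number, the exception being WT replicate 5. The log2 fold change of LPS over saline was 0.55 ± 0.17 (SE, edgeR adjusted p = 1.0). With the replicate number as a block it was 0.56 ± 0.10 and passed (edgeR adjusted p = 0.0252), the 1 member called in that fit, where 0.164% of all tested genes were called. With a term for the library set in place of the block it was 0.54 ± 0.12 and did not pass (edgeR adjusted p = 0.0712). It was 0.58 in replicates 1 and 2 alone (edgeR adjusted p = 0.974) and 0.53 in replicates 3 to 5 alone (edgeR adjusted p = 0.627).

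Clec4a3, a C-type lectin receptor of myeloid cells, had the smallest p among the members. Its level was 1.05, 0.754, 0.818, 1.75 and 0.941 CPM in KO LPS libraries, against 0.543, 0.426, 0.721, 0.575 and 0.940 CPM in KO saline libraries. In WT it was 0.749, 1.06, 0.838, 1.14 and 1.37 CPM after LPS, against 0.548, 0.184, 0.587, 0.474 and 0.856 CPM after saline. All 10 LPS libraries were above the saline library of the same genotype and number, though KO replicate 5 was nearly equal. LPS over saline gave 0.84 ± 0.24 on the log2 scale (SE, edgeR adjusted p = 0.805; with the block 0.203). The immune list as a whole had a median log2 fold change of 0.22 for LPS over saline, with 13 of 15 above 0, beside 8092 of 16419 over all tested genes.

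Microglial markers were present throughout. Their summed level (9 of 9 markers, none at 0) was 371 to 594 CPM in KO LPS, 336 to 523 CPM in KO saline, 412 to 702 CPM in WT LPS and 354 to 660 CPM in WT saline. LPS over saline lay above 0 on the log2 scale for 8 of the 9 (median 0.20) and none was called. Blood markers varied widely within every group, and LPS and saline libraries overlapped in both genotypes. Their summed level (5 of 5 markers, none at 0) was 3.8 to 81.6 CPM in KO LPS, 1.79 to 56.4 CPM in KO saline, 4.58 to 85.6 CPM in WT LPS and 1.05 to 78.1 CPM in WT saline. All 5 had a log2 fold change of LPS over saline above 0 (median 0.97) and none was called. The part of microglial and blood markers in the values of Ptpn6 and Clec4a3 was not tested.

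Vamp1 had 194, 126, 129, 119 and 127 CPM in KO LPS libraries, against 112, 98, 111, 122 and 121 CPM in KO saline libraries. In WT it had 227, 128, 139, 237 and 136 CPM after LPS, against 111, 122, 130, 131 and 132 CPM after saline. The high values sat in KO LPS replicate 1 and WT LPS replicates 1 and 4. Of the 10 LPS libraries, 9 were above the saline library of the same genotype and number, the exception being KO replicate 4. In the 3 high libraries the summed level of 10 thalamus markers, all present, was 215, 231 and 248 CPM, beside 147 to 218 CPM in the others. The 218 CPM belonged to KO saline replicate 4, which had 122 CPM of Vamp1. The log2 fold change of LPS over saline was 0.39 ± 0.12 (SE, edgeR adjusted p = 1.0) with all libraries and 0.13 ± 0.06 (edgeR adjusted p = 1.0) without those 3. Since the 3 are the LPS libraries with the most Vamp1, leaving them out lowers the value by construction.

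The remaining members with the smallest p were Adipor2, an adiponectin receptor, with a log2 fold change of LPS over saline of 0.13 ± 0.06 (SE), and Cacna2d4 with 0.45 ± 0.22 (edgeR adjusted p = 1.0 for both). Of the 6 members called between genotypes, LPS over saline gave values from -0.17 ± 0.13 for Scnn1a to 0.31 ± 0.20 for A2m, each with an edgeR adjusted p of 1.0. Over all 91 members the LPS log2 fold change had a median of 0.025 and a median absolute value of 0.081, against -0.002 and 0.072 over all tested genes.

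**Figure D4:**
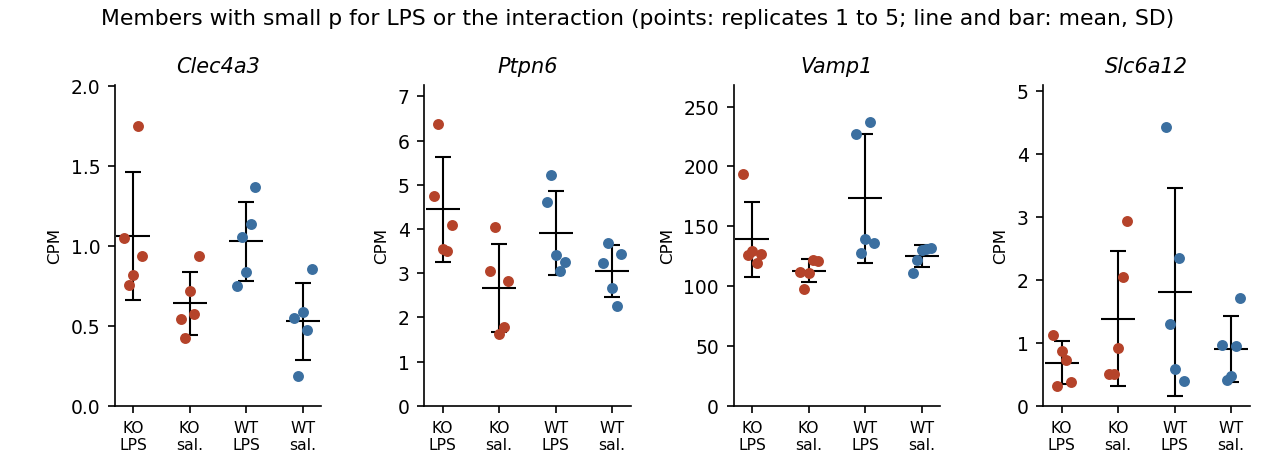
Level in CPM (vertical axis) of Clec4a3, Ptpn6, Vamp1 and Slc6a12 by library, for KO LPS, KO saline, WT LPS and WT saline (horizontal axis), with the mean and SD of 5 libraries. LPS and saline libraries overlap within each genotype for all 4 genes, and the high Vamp1 values are KO LPS replicate 1 and WT LPS replicates 1 and 4.

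The interaction asked whether the response to LPS differed between KO and WT. It called 0 members and 0.0% of all tested genes (edgeR quasi-likelihood; 0 members also by DESeq2 and limma-voom), with 3 members beside 1.11% of all genes at an unadjusted p under 0.05. These were A230083G16Rik, an antisense transcript at Ptms, at 0.98 ± 0.38 (SE), Slc6a12 at -2.01 ± 0.89 and Hnrnpf at -0.33 ± 0.15, each with an edgeR adjusted p of 1.0. A230083G16Rik averaged 2 ± 0.634 CPM in KO LPS, 1.42 ± 0.424 in KO saline, 1.17 ± 0.299 in WT LPS and 1.67 ± 0.426 in WT saline (SD, n = 5 each). Hnrnpf averaged 31.5 ± 5.51 CPM in KO LPS, 38.5 ± 2.85 in KO saline, 42.2 ± 1.95 in WT LPS and 40.9 ± 4.38 in WT saline.

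Slc6a12 had 1.12, 0.308, 0.872, 0.734 and 0.376 CPM in KO LPS libraries, against 0.507, 0.511, 0.914, 2.05 and 2.93 CPM in KO saline libraries. In WT it had 4.42, 1.30, 0.580, 2.34 and 0.391 CPM after LPS, against 0.960, 0.415, 0.480, 0.947 and 1.71 CPM after saline. Its neighbour Slc6a13, the GABA transporter GAT2, was named after its values were seen. It was highest in KO saline replicate 4 and WT LPS replicate 1, with 13.9 CPM in each. The summed meningeal markers given above, a list that includes Slc6a13, were also highest in these libraries, at 177 and 162 CPM, and their part in the Slc6a12 values was not tested.

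The members' levels differed far more between genes than between groups. Per exon length, over all 20 libraries, the highest were Ptms, a small acidic nuclear protein, at 501 RPKM, Gapdh at 391 RPKM, Eno2 at 231 RPKM, Tpi1 at 223 RPKM and Mlf2 at 137 RPKM. Among the called members Zfp239 stood at 9.55 RPKM, Scnn1a at 2.20 RPKM, Ncapd2 at 1.89 RPKM, A2m at 0.622 RPKM and Klrg1 at 0.46 RPKM. In CPM, Ptms averaged 868 ± 69.3 in KO LPS, 824 ± 43.4 in KO saline, 753 ± 96.4 in WT LPS and 800 ± 73.8 in WT saline (SD, n = 5 each). Its log2 fold change was 0.12 ± 0.07 (SE) for KO over WT and -0.01 ± 0.07 for LPS over saline (edgeR adjusted p = 1.0 for LPS).

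**Figure D5:**
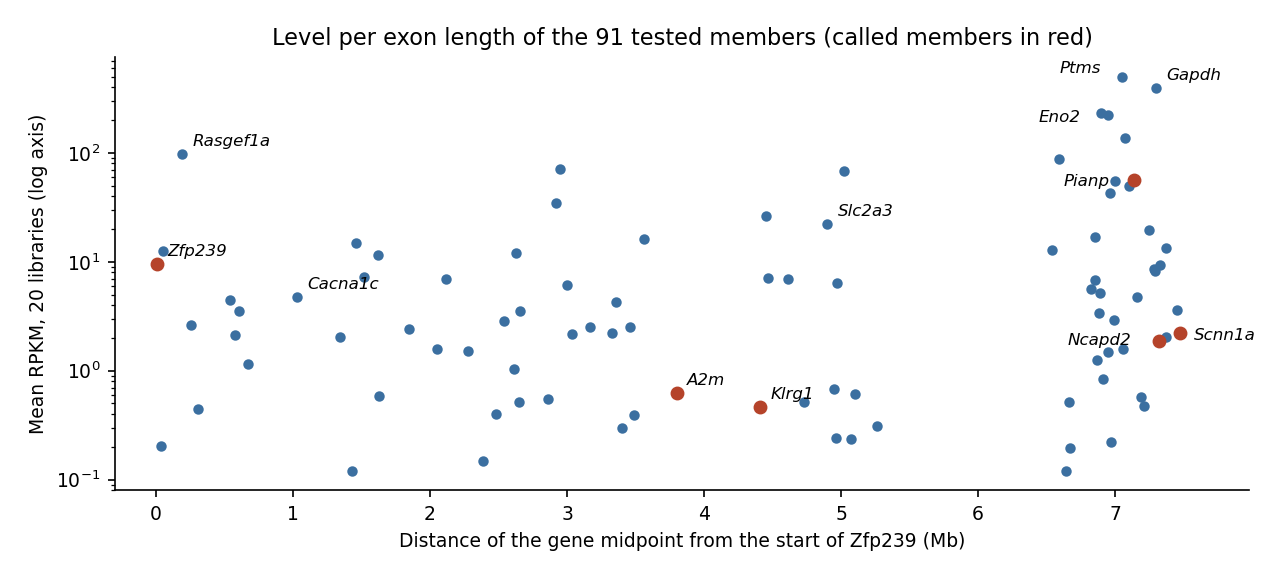
Mean RPKM over 20 libraries (vertical axis, log scale) of the 91 tested members against the distance of the gene midpoint from the start of Zfp239 in Mb (horizontal axis), called members in red. The most abundant members (Ptms, Gapdh, Eno2) lie near the distal end, and A2m and Klrg1 are among the scarce ones.

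None of the 6 called members had a near-identical copy (at least 95% identity over at least 30% of a transcript) in the annotation. Ncapd2 shares 237 exon bases with the small RNA gene Scarna10 and 235 with the sense intronic transcript Gm28967, which both had 0 counts, and no other called member shares exon bases with another gene. Gm44597 shares 975 exon bases with Acrbp and 1855 with Ing4 on the same strand, where reads cannot be assigned to 1 gene, so these counts are uncertain. Bid and Bcl2l13 share 628 exon bases on opposite strands, and their counts are uncertain because the strand setting of the counting is not given in the sources used here.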

How the data were processed

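RNA sequencing read counts per gene were available for 20 hippocampal libraries. Per the labels' protocols, RNA was extracted with RNeasy columns and libraries were made with NEBNext Ultra reagents from total RNA. Per the submitters' processing notes, reads were trimmed with Trimmomatic 0.38, inspected with FastQC and MultiQC and counted with featureCounts 1.6.0 on mm10. The aligner, annotation release, strand setting and treatment of multi-mapping reads are not given in the sources used here. The authors deposited raw counts, whole numbers per Ensembl gene, neither normalized nor filtered. All 55536 identifiers matched GENCODE M21 (GRCm38), which gave symbols, positions and exon lengths. Total counts were 16652992 to 27230202 per library.

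All 20 libraries entered 1 edgeR 4.0.16 fit (R 4.3.3; TMM, filterByExpr, robust quasi-likelihood F test, no covariates) with Benjamini-Hochberg adjustment over 16419 genes at 0.05. "Called" means past that threshold. SE is the absolute log2 fold change divided by the square root of F. Given CPM and RPKM use TMM factors. The script was tested on simulated data. Copies were found with blast 2.17.0. Alternatives were DESeq2 1.42.0, its size factors in edgeR, limma-voom with library quality weights (limma 3.58.1, named limma-voom throughout) and other filters. Further ones were the groups compared alone, a replicate block, a library-set term, each library set alone and the fit without 3 libraries. The last were a minimum of 500 counts, a shorter interval and leaving out each library.

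Members, gene lists and tests were chosen with earlier results of these data known. Named genes are Fkbp5, Lag3, 3 tested genes inside and outside each end, the called members, the 5 with the smallest p for LPS and the 3 for the interaction, the 5 highest per length, and up to 3 with the smallest genotype p of each role list. P3h3, Acrbp, Slc6a13 and further members given as examples were added after their values were seen. The labels do not say what replicate numbers stand for. After removing group means, Pearson's r of the 30 same-number pairs ran from 0.264 to 0.854, with a median of 0.462. Each was above 0.1, so the number was used as a block in an alternative fit, and blocked values are printed where they change a call. For the 48 pairs that shared a library set but not a number, r ran from 0.191 to 0.672, with a median of 0.45. For pairs from different sets it ran from -0.705 to -0.149. The check therefore does not separate pairing by number from a shared library set. Comparisons of same-number libraries for Ptpn6, Clec4a3 and Vamp1 are descriptions.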

Additional observations from a re-analysis of the deposited data

Results flagged for a closer look

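In 12 of 156 groups of 5 libraries, 1 library lay far from the other 4 by Dixon's criterion. Chance alone meets it in about 1 of 20 groups, but P3h3 and Acrbp were added after their high values were seen. The count is therefore not read against that rate. P3h3 reached 44.1 CPM in KO LPS replicate 1 beside 4.70 to 8.60 CPM in the rest of its group, and 39.8 CPM in WT saline replicate 1 beside 3.43 to 11.9 CPM. Acrbp reached 5.61 CPM in KO LPS replicate 1 beside 0.545 to 1.02 CPM, and 8.04 CPM in WT saline replicate 1 beside 0.474 to 1.89 CPM. KO LPS replicate 1 was also the highest of its group for Vamp1 (194 CPM beside 119 to 129 CPM), Ncapd2 (14.8 CPM beside 6.15 to 8.03 CPM) and Cacna2d4 (1.74 CPM beside 0.72 to 0.941 CPM). Ptms was high in KO LPS replicate 2 (988 CPM beside 809 to 850 CPM). Tapbpl was high in WT LPS replicate 1 (6.31 CPM beside 4.25 to 4.76 CPM). The unverified transcript 4933440N22Rik was high in KO saline replicate 2 (0.554 CPM beside 0.276 to 0.326 CPM). Outside the proximal end, Zfp637 was low in KO saline replicate 1 (17 CPM beside 22.2 to 24.3 CPM) and Gm7292 in WT saline replicate 1 (0.868 CPM beside 1.65 to 1.80 CPM).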

How the results depend on the processing

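No result changed direction under any alternative run. The genotype counts repeat the contrast that chose the stretch and are descriptions. Over both treatments KO against WT called 6 members, and 14 by limma-voom, 0 in replicates 1 and 2 alone, 15 in replicates 3 to 5 alone and 2 with the stretch shortened by 0.5 Mb at each end. The shorter stretch leaves out Zfp239, Pianp, Ncapd2 and Scnn1a, so its lower counts, here and below, follow by construction. After saline the 1 called member became 4 by DESeq2, 7 by limma-voom, 5 with the replicate block, 3 with a term for the library set, 0 in replicates 1 and 2, 8 in replicates 3 to 5, 2 without KO LPS replicate 1 and WT LPS replicates 1 and 4, and 0 with the shorter stretch. After LPS the 1 became 2 by DESeq2, 5 by limma-voom, 6 with the replicate block, 4 with the library-set term, 0 in replicates 1 and 2, 5 in replicates 3 to 5, 0 when the groups compared were fitted alone, and 0 with the shorter stretch. The replicate block raised the LPS count over both genotypes from 0 to 1 (Ptpn6) and changed no other count of LPS or interaction calls. The 2 members without overlap became 12 in replicates 1 and 2 (beside 4.61% of all tested genes) and 11 in replicates 3 to 5 (3.0%). Without the 3 libraries they became 5 (0.244%). The count was 1 with at least 1 CPM in 5 libraries (0.155%), with at least 500 counts (0.151%) and with the shorter stretch (0.152%). Leaving out 1 library gave 4 to 6 calls over both treatments, 1 to 2 after saline (2 without WT LPS replicate 1, 2 or 3) and 1 to 3 after LPS (3 without KO LPS replicate 1, 2 without KO LPS replicate 2). With all libraries, 0.439% of all tested genes were called over both treatments, 0.171% after saline and 0.146% after LPS. Leaving out 1 library also gave 2 to 3 members without overlap, beside 0.152% to 0.189% of all tested genes. It gave 0 calls for LPS and the interaction. Few counts limit the values of Klrg1, C1rl and other members under 2 CPM.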
